A study of Mus musculus with 8 samples.

Results

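The vascular endothelial growth factor (VEGF) family was followed in adult mouse heart through 10 genes: the ligands Vegfa, Vegfb, Vegfc, Figf (current symbol Vegfd) and Pgf, the receptor tyrosine kinases Flt1, Kdr and Flt4, and the co-receptors Nrp1 and Nrp2. Every non-control probe that the array files assign to one of these gene names was taken, which gave 20 of the 41174 probes on the array and 10 of its 21377 named genes. RNA came from hearts of male mice aged 12 weeks, 4 wild-type (WT) mice and 4 mice overexpressing PKR2, which is taken here to be prokineticin receptor 2 (gene Prokr2), through which secreted prokineticins signal to G proteins. Each heart was hybridised to a 1-colour oligonucleotide array after labelling with the dye Cy3. The construct, promoter and target cell type behind the overexpression, and the strain, are not given in the sources used here. The labels list 8 separate hearts; they do not say whether any were littermates.

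VEGF ligands are secreted dimers that bind receptor tyrosine kinases on blood and lymphatic endothelium. VEGF-A acts mainly through the receptor encoded by Kdr, while the receptor encoded by Flt1 binds VEGF-A, VEGF-B and placental growth factor and can hold VEGF-A away from Kdr; VEGF-C and VEGF-D act on the lymphatic receptor encoded by Flt4. Neuropilins are co-receptors that bind both VEGFs and semaphorins, and in the heart the cardiomyocytes supply much of the VEGF-A and VEGF-B that act on the neighbouring capillaries.

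The promoters of Vegfa and of its receptor genes Flt1 and Kdr are shown as examples. Each sequence is the 250 bases before the RefSeq start site, 5′ to 3′ on the gene's strand, from the RefSeq promoter table of build GRCm38.p6: chr17:46032378-46032627 for Vegfa (1 of 2 listed starts), chr5:147726012-147726261 for Flt1 and chr5:75978456-75978705 for Kdr, all on the minus strand. Capitals mark 4 motifs searched on both strands and spelled out below the sequences. No marked motifs overlap in these 3 windows.
Vegfa: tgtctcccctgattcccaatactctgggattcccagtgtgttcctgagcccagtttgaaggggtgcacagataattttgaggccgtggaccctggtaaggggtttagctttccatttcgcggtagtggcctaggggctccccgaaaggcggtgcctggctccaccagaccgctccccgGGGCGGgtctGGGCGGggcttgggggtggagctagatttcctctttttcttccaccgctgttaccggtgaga
Flt1: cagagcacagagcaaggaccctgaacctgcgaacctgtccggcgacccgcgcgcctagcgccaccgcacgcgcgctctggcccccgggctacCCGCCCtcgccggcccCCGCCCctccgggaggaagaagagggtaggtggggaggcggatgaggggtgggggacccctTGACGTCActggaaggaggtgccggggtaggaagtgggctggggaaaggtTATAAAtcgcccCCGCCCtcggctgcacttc
Kdr: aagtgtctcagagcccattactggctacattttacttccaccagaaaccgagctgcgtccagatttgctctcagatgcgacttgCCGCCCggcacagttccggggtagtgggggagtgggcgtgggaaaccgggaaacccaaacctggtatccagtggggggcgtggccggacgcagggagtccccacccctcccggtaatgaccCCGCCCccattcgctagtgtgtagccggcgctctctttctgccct
The Sp1 box, GGGCGG, stood in 10 of the 12 promoters listed for the 10 genes, and in 32.7% of all 32851 promoters of the same length in the table. The Flt1 window held the only cyclic AMP response element, TGACGTCA, among the 12, an element found in 1.55% of all promoters. A match to the letters TATAAA, the box near many start sites, was found in 2 of the 12 (Flt1 and Vegfd), against 12.4% of all promoters. For the hypoxia response core only the form ACGTG was searched and the form GCGTG was not, so windows without ACGTG may still hold a core. ACGTG was found in 1 of the 12, at the other listed start of Vegfa, against 16.6% of all promoters. That window (chr17:46025164-46025413) lies downstream of the Vegfa window shown, and whether it holds transcribed or coding sequence was not analysed. These are matches of letters in a window and say nothing of which factor binds there.

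The arrays differed in brightness and in the scan range inferred from their headers. The 75th percentile of the processed signal ran from 40.9 (WT 2) to 766 (PKR2 1), and the share of spots well above background from 48.3% (WT 2) to 67.0% (PKR2 1). Levels below are log2 signals relative to that percentile on the same array, so that 0 marks the percentile itself, and differences are PKR2 minus WT on the log2 scale. Across probes, which are not replicates, the correlation of 2 WT arrays lay between 0.968 and 0.986, of 2 PKR2 arrays between 0.970 and 0.991, and of arrays from different groups between 0.963 and 0.988. All 4 PKR2 arrays and WT 1 lay at position 4 of their slide. The scan range was inferred from the saturation value in each array's header. By this value WT 2, WT 4 and PKR2 4 were taken as scanned over a single range, the others over an extended one. The 10 cardiomyocyte markers examined (such as Myh6, Tnnt2 and Ryr2) were well above background on all 8 arrays. The 1 Prokr2 probe was well above background on 0 of 4 WT and 0 of 4 PKR2 arrays, so the arrays give no check of the overexpression itself.

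WT 1 and PKR2 1 stood apart from the other 6 arrays. Of all 22717 tested probes, 18.1% were higher in both of these arrays than in any of the other 6, and 17.3% were lower in both. Differences and correlations of probes in which these arrays lie beyond the other 6 are also given without both, an alternative chosen after the data were seen.

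Of the 20 VEGF family probes, 15 were well above background on all 8 arrays. The Flt4 probe passed on 5 arrays, a Vegfb probe on the 7 arrays where its spot carried no outlier flag, and 3 probes (2 for Flt1, 1 for Kdr) on none. Testing required a usable spot on every array and a signal well above background in 3 or 4 arrays of either group, which left 16 probes covering all 10 genes. By limma, a linear model test with shrunken variances fitted over all 22717 tested probes, 0 of the 16 differed between PKR2 and WT at an adjusted p under 0.05, and the same was true of 0% of all tested probes. The smallest unadjusted limma p among the 16 was 0.190, so 0 of 16 fell under 0.05, against 2.60% of all tested probes (591 probes). In 0 of 16 were the 4 PKR2 hearts all above or all below the 4 WT hearts, against 1.84% of all tested probes. The PKR2 mean was higher for 7 of the 16 and lower for 9, where 55.3% of all tested probes were higher. Differences ran from -0.30 to 0.29, with a median of -0.01 against 0.02 over all tested probes. The limma adjusted p of each of the 16 probes was 1.0, and it is not repeated below.

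**Figure D1:**
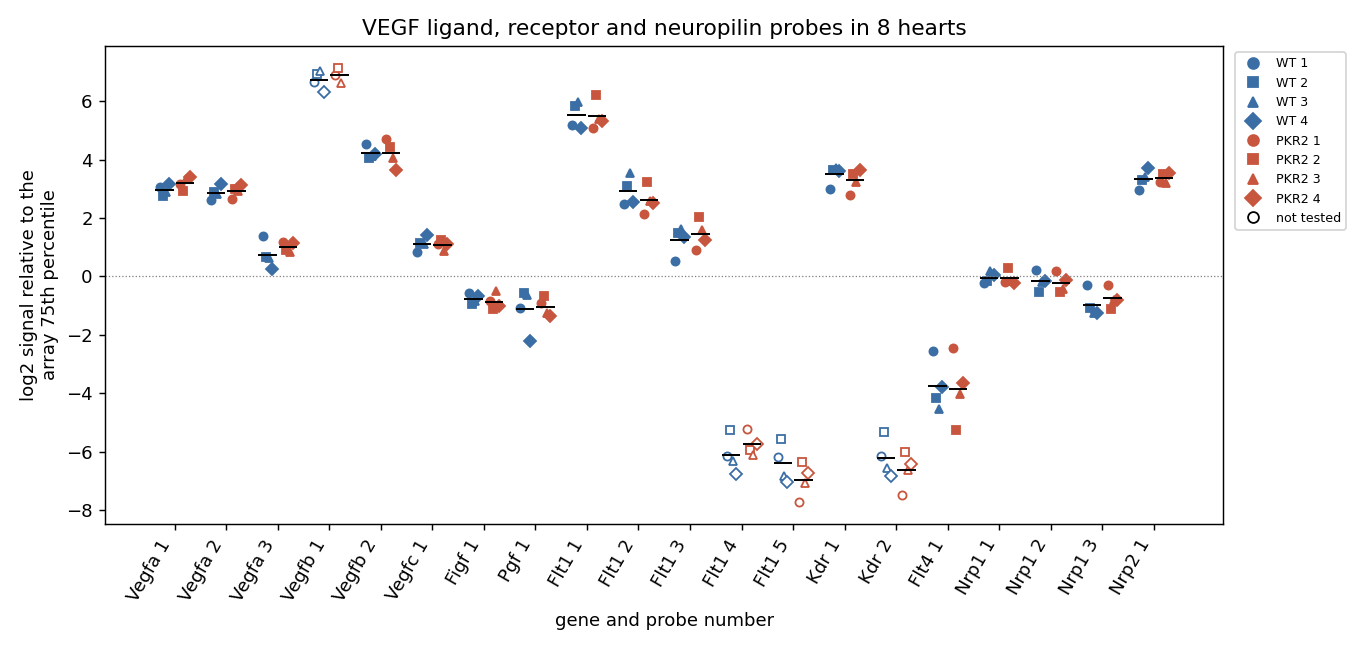
Level of each VEGF family probe (log2 signal relative to the array's 75th percentile) in the 4 WT hearts (blue) and 4 PKR2 hearts (red), with 1 symbol shape for each replicate number, bars at group means and open symbols for probes that were not tested. The groups overlap for every tested probe, and the 3 probes at the bottom were not well above background on any array.

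Among the ligands, Vegfa was read by 3 probes on chromosome 17 (positions are in build mm8, and the probes of a gene are numbered from the brightest in WT hearts). Vegfa encodes the main angiogenic ligand. Its probe 1 (45481019 to 45481078) read 3.06, 2.75, 2.90 and 3.18 in WT hearts 1 to 4 and 3.17, 2.93, 3.35 and 3.41 in PKR2 hearts 1 to 4. PKR2 3 and PKR2 4 were above all WT hearts, and PKR2 1 and PKR2 2 lay inside the WT range. The means were 2.97 ± 0.19 (SD, n = 4) and 3.21 ± 0.22 (SD, n = 4), a difference of 0.24 (SE 0.17, 95% interval -0.14 to 0.62) or 1.18-fold, with a two-sided exact permutation p of 0.143 over the 70 relabelings, whose smallest possible p is 0.0286. This probe was higher in PKR2 under every alternative tried, by 0.14 to 0.45.

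Vegfa probe 2 (45482144 to 45482203) is spotted 10 times on each array. It read 2.61, 2.91, 2.82 and 3.15 in WT and 2.65, 3.01, 2.92 and 3.14 in PKR2 hearts. The 4 PKR2 hearts fell within the WT range, and WT 1 and PKR2 1 were the lowest of their groups. The difference was 0.06 (SE 0.18, 95% interval -0.33 to 0.45, exact permutation p = 0.686), and 0.066 without WT 1 and PKR2 1. Vegfa probe 3 (45489008 to 45489067) read 1.39, 0.67, 0.63 and 0.26 in WT and 1.18, 0.91, 0.85 and 1.15 in PKR2 hearts. WT 1 was above all PKR2 hearts while the other 3 WT hearts were below them. The difference was 0.29 (SE 0.24, 95% interval -0.24 to 0.82, exact permutation p = 0.286), and without WT 1 and PKR2 1 it was 0.45 (SE 0.18, limma adjusted p = 1.0). Over the 8 arrays r was 0.28 between probes 1 and 2, 0.25 between 1 and 3 and -0.56 between 2 and 3. Without WT 1 and PKR2 1 these values were 0.57, 0.34 and 0.039, so the negative value rested on these arrays. Probe 3 lies 6.86 kb from probe 2, and which exon or transcript form each probe reads was not analysed here.

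The repeated spots of Vegfa probe 2 set the spread within an array against the spread between hearts. On each array 9 or 10 of its spots carried no outlier flag, and their SD was 0.033 to 0.166 (median 0.072). The pooled SD between mice of a group was 0.215. Kdr probe 1, also spotted 10 times, had a spot SD of 0.046 to 0.087 (median 0.051) against an SD between mice of 0.36. The spread between hearts was thus larger than the median spread between spots of the same array for both probes. Each heart was read on 1 array, so the spread between hearts also holds differences between arrays, which these spots cannot separate.

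**Figure D2:**
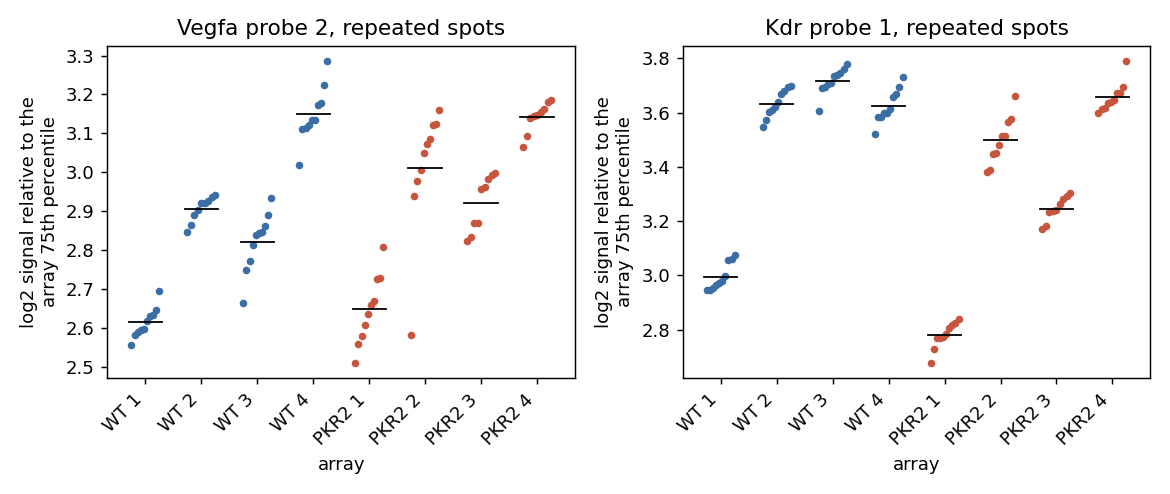
Unflagged repeated spots of Vegfa probe 2 (left) and Kdr probe 1 (right) on each array, as log2 signal relative to the array's 75th percentile, ordered by value within an array, with a bar at the mean (WT blue, PKR2 red). For Kdr the spots of WT 1 and PKR2 1 lie below those of the other 6 arrays.

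Vegfb encodes a ligand of Flt1 that cardiomyocytes express strongly. It was read by 2 probes 225 bases apart on chromosome 19. Probe 1 (7049516 to 7049573) read 6.65, 6.93, 7.04 and 6.33 in WT and 6.89, 7.15 and 6.63 in PKR2 1 to 3; its spot on PKR2 4 carried an outlier flag, so it was left out of the limma fit. The means were 6.74 ± 0.32 (SD, n = 4) and 6.89 ± 0.26 (SD, n = 3), and the difference of 0.15 had an exact permutation p of 0.543 over 35 relabelings. In the authors' deposited table, which holds a value for PKR2 4, the difference was -0.12. Probe 2 (7049799 to 7049858) read 4.52, 4.07, 4.11 and 4.18 in WT and 4.70, 4.42, 4.07 and 3.66 in PKR2 hearts. PKR2 hearts were both the highest and the lowest of the 8, and the difference was -0.0089 (SE 0.23, 95% interval -0.53 to 0.51, exact permutation p = 0.971), and -0.073 without WT 1 and PKR2 1.

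The other ligands had 1 probe each. Vegfc, which encodes a lymphatic ligand (chromosome 8, 55684877 to 55684936), read 0.83, 1.16, 1.1 and 1.41 in WT and 1.1, 1.26, 0.87 and 1.11 in PKR2 hearts, with a difference of -0.043 (SE 0.17, 95% interval -0.43 to 0.34, exact permutation p = 0.800). All PKR2 hearts lay within the WT range. Figf, which encodes VEGF-D, also a ligand of Flt4 (chromosome X, 159746568 to 159746627), read -0.56, -0.94, -0.85 and -0.67 in WT and -0.82, -1.12, -0.49 and -1.02 in PKR2 hearts, with a difference of -0.11 (SE 0.18, 95% interval -0.52 to 0.30, exact permutation p = 0.543). PKR2 hearts again held both the highest and the lowest value. Pgf encodes placental growth factor, a ligand of Flt1, and its probe spans 2003 bases of chromosome 12 (86056488 to 86058490), the stretch from its first to its last base in the genome. It read -1.09, -0.57, -0.62 and -2.20 in WT and -0.92, -0.68, -1.25 and -1.36 in PKR2 hearts. WT 4 was the lowest of the 8 and WT 2 and WT 3 the highest. The difference was 0.071 (SE 0.35, 95% interval -0.71 to 0.85, exact permutation p = 0.914), and without WT 4 it was -0.29.

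Among the receptors, Flt1 was read by 3 tested probes on chromosome 5. Flt1 encodes the receptor that binds VEGF-A, VEGF-B and placental growth factor, in a membrane form and a soluble form. Probe 1 (147872564 to 147872623) read 5.17, 5.83, 5.96 and 5.08 in WT and 5.09, 6.21, 5.38 and 5.31 in PKR2 hearts, with a difference of -0.013 (SE 0.29, 95% interval -0.67 to 0.64, exact permutation p = 1.0). Probe 2 (147872637 to 147872696), 13 bases away, read 2.46, 3.08, 3.55 and 2.55 in WT and 2.13, 3.22, 2.60 and 2.50 in PKR2 hearts, with a difference of -0.30 (SE 0.30, 95% interval -0.97 to 0.36, exact permutation p = 0.457). For both probes PKR2 2 was the highest and PKR2 1 the lowest of the PKR2 hearts, WT 2 and WT 3 were above WT 1 and WT 4, and the groups overlapped. Probe 3 (147948554 to 147948613), 76.0 kb from probe 1, read 0.55, 1.5, 1.61 and 1.37 in WT and 0.92, 2.02, 1.58 and 1.25 in PKR2 hearts, with a difference of 0.19 (SE 0.30, 95% interval -0.47 to 0.85, exact permutation p = 0.600). The 3 probes followed each other over the 8 arrays, with r of 0.91 (probes 1 and 2), 0.78 (1 and 3) and 0.71 (2 and 3), and of 0.88, 0.82 and 0.62 without WT 1 and PKR2 1. Without both arrays the differences were -0.29 for probe 2 and 0.13 for probe 3. Flt1 probe 3 is assigned to a different transcript record than probes 1 and 2, and which form each probe reads was not analysed. The other 2 Flt1 probes were not well above background on any array.

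Kdr encodes the main signalling receptor for VEGF-A on blood endothelium. Its probe 1 (chromosome 5, 76214981 to 76215040) read 3.0, 3.63, 3.72 and 3.62 in WT and 2.78, 3.5, 3.25 and 3.66 in PKR2 hearts. WT 1 was well below the other WT hearts, and PKR2 1 was the lowest of the 8. The means were 3.49 ± 0.33 (SD, n = 4) and 3.30 ± 0.38 (SD, n = 4), a difference of -0.20 (SE 0.24, 95% interval -0.73 to 0.34, exact permutation p = 0.514). Without WT 1 and PKR2 1 the difference was -0.19 (SE 0.16). With arrays at position 4 only, which sets the PKR2 hearts against WT 1 alone, it was 0.30. Kdr probe 2, 28.3 kb away, was not well above background on any array.

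Flt4 encodes the receptor for VEGF-C and VEGF-D and marks lymphatic endothelium. Its probe (chromosome 11, 49495567 to 49495626) was well above background on 2 WT and 3 PKR2 arrays. It read -2.56, -4.15, -4.54 and -3.78 in WT and -2.46, -5.26, -4.01 and -3.64 in PKR2 hearts, with a difference of -0.087 (SE 0.58, 95% interval -1.39 to 1.21, exact permutation p = 0.943). WT 1 and PKR2 1 were the highest of the 8, and without both the difference was -0.15 (SE 0.43). Its SE was the largest of the 16 probes.

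Among the co-receptors, Nrp1 encodes neuropilin 1, which presents VEGF-A to Kdr and also binds semaphorin 3A. It was read by 3 probes on chromosome 8. Probe 1 (131246199 to 131246258) read -0.22, -0.15, 0.17 and 0.05 in WT and -0.17, 0.28, -0.14 and -0.22 in PKR2 hearts, with a difference of -0.027 (SE 0.17, 95% interval -0.41 to 0.36, exact permutation p = 0.914). PKR2 2 alone was above the WT range. Probe 2 (131388840 to 131388899) read 0.21, -0.55, -0.18 and -0.14 in WT and 0.18, -0.55, -0.41 and -0.12 in PKR2 hearts, with a difference of -0.062 (SE 0.22, 95% interval -0.55 to 0.43, exact permutation p = 0.83). Probe 3 (131354463 to 131354522) read -0.30, -1.09, -1.23 and -1.24 in WT and -0.30, -1.10, -0.80 and -0.81 in PKR2 hearts, with a difference of 0.21 (SE 0.25, exact permutation p = 0.486). WT 1 and PKR2 1 had the highest values of both probes. Without both, the differences were -0.072 for probe 2 and 0.28 for probe 3. Over the 8 arrays r was 0.72 between probes 2 and 3, and -0.062 without WT 1 and PKR2 1. Probe 1, which lies 143 and 108 kb from probes 2 and 3, had r of -0.45 and -0.69 with them, and of -0.13 and -0.70 without these arrays. Probe 1 is assigned to a different transcript record than probes 2 and 3, and which form each probe reads was not analysed.

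Nrp2 encodes neuropilin 2, a co-receptor of lymphatic and venous endothelium for VEGF-C. Its probe (chromosome 1, 62752831 to 62752890) read 2.96, 3.31, 3.41 and 3.73 in WT and 3.22, 3.52, 3.19 and 3.55 in PKR2 hearts. The PKR2 hearts lay within the WT range, and the difference was 0.016 (SE 0.19, 95% interval -0.42 to 0.45, exact permutation p = 0.886).

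The intervals limit how large a change could have been missed. In the limma fit above, the 95% interval of the difference lay within 2-fold in either direction for 15 of the 16 probes, covering 9 genes. For 7 it lay within 1.5-fold. The exception to 2-fold was Flt4, where the interval ran from 0.383-fold to 2.32-fold. The interval extended a median of 0.53 to either side for the VEGF family probes and 0.48 for all tested probes, and the median SD between hearts of a group was 0.35 against 0.31. For the other 9 probes a change of more than 1.5-fold lay inside the interval, and a p above the threshold does not show that levels were equal. These limits hold for that fit only. After normexp background correction, an alternative, the difference was 0.33 (SE 0.38) for Flt1 probe 1 and 0.33 (SE 0.36) for Vegfb probe 2. Both intervals then reach past 2-fold.

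**Figure D3:**
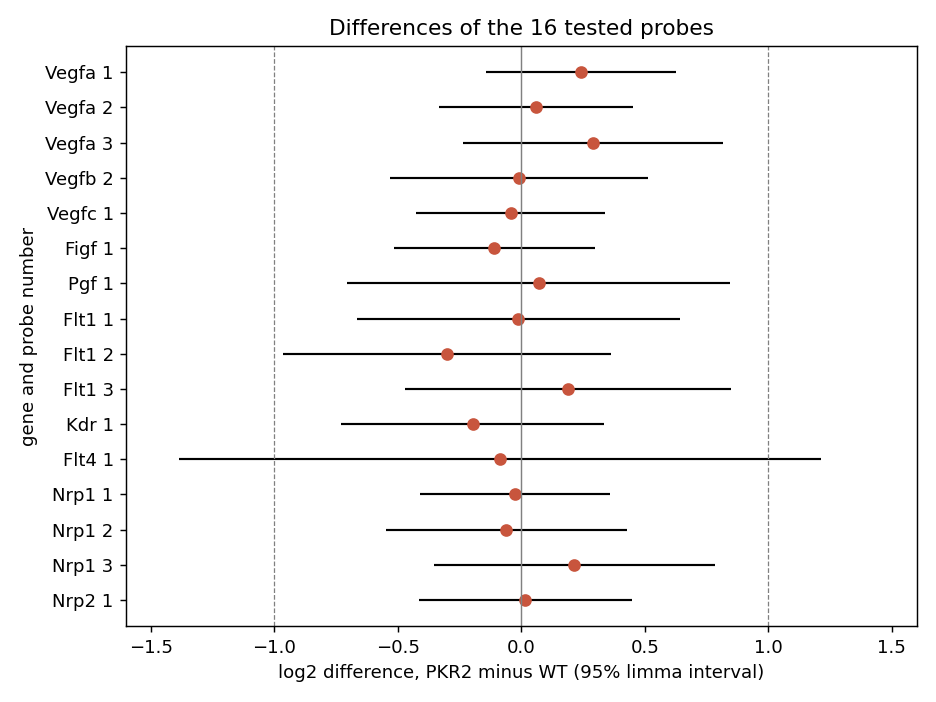
Difference in log2 level between PKR2 and WT hearts for each tested VEGF family probe (points) with its 95% limma interval (lines); dashed lines mark 2-fold either way. Every interval holds 0, and the Flt4 interval alone reaches past the dashed lines.

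On the 2 slides that held a heart of each group, 4 of the 16 probes were higher in the PKR2 heart of both slides, 6 were lower in both and 6 differed in sign. Vegfa probe 1 gave 0.45 on the slide of WT 3 and PKR2 3 and 0.23 on the slide of WT 4 and PKR2 4. Vegfa probe 3 gave 0.22 and 0.89, and Nrp1 probe 3 gave 0.44 and 0.43. Kdr gave -0.47 and 0.034, and Flt1 probe 1 gave -0.58 and 0.22. Vegfc gave -0.23 and -0.31, and Nrp2 gave -0.22 and -0.18. With 1 heart of each group per slide these pairs have no replicate error and were not tested singly.

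The hearts differed from each other in a pattern that crossed the groups. WT 1 and PKR2 1 were both above the other 6 hearts in 5 of the 16 probes (Vegfa probe 3, Vegfb probe 2, Flt4 and Nrp1 probes 2 and 3), and both below them in 4 (Vegfa probe 2, Flt1 probes 2 and 3, and Kdr). For all tested probes these shares were 18.1% and 17.3%. Of the 120 pairs of the 16 probes, 57 had a positive and 63 a negative correlation over the 8 arrays, from -0.96 (Flt1 probe 3 with Flt4) to 0.91 (Flt1 probes 1 and 2). Without WT 1 and PKR2 1 there were 56 positive and 64 negative pairs, and r of Flt1 probe 3 with Flt4 was -0.97. The Flt4 probe was well above background on only 2 WT and 3 PKR2 arrays, so its correlations rest partly on signal near background. Kdr had r of 0.52, 0.69 and 0.65 with Flt1 probes 1 to 3, and of 0.11, 0.35 and -0.32 without these arrays. The fibroblast marker score, the mean level of 9 fibroblast genes about their own means, was also lowest in WT 1 (-0.38) and PKR2 1 (-0.31), between 0.036 and 0.25 in the other 6. It was 1 of 13 list scores. The endothelial score, for example, did not set these arrays apart (-0.018 in WT 1 and 0.078 in PKR2 1, within -0.098 to 0.11 over the 8 arrays). Single endothelial markers did so in both directions. Pecam1 was highest in WT 1 (0.78) and PKR2 1 (0.89), and Emcn was lowest in them (3.35 and 3.39). Single fibroblast markers did not all follow their score, as Tcf21 read -0.049 in WT 1 and 0.33 in PKR2 1, within -0.24 to 0.34 over the 8 arrays. The part of the fibroblast score in the array pattern was not tested. These correlations are a description of 8 arrays, and all probes of an array share its brightness and scan settings.

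**Figure D4:**
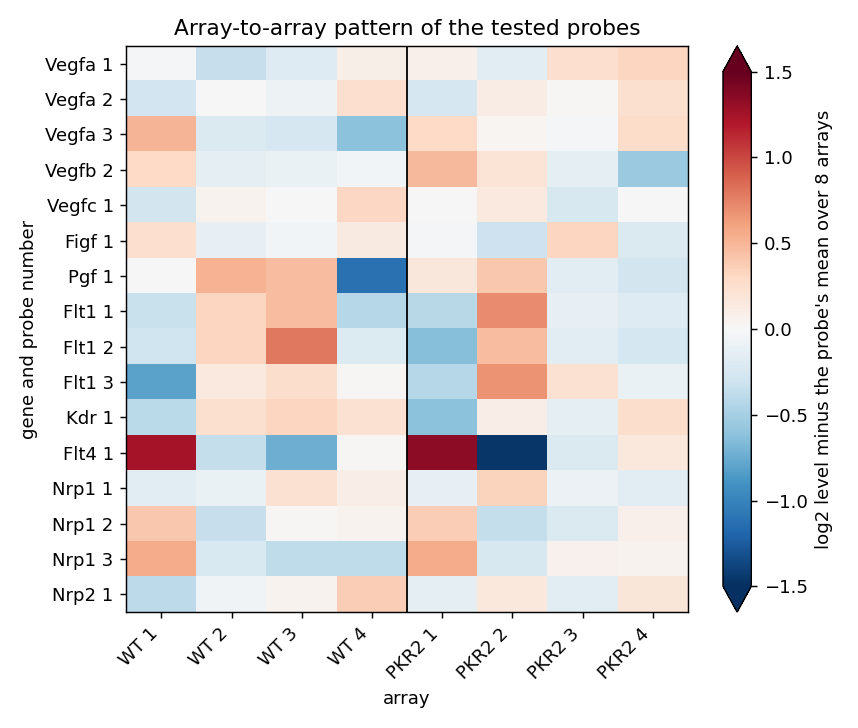
Level of each tested VEGF family probe on each array as log2 level minus the probe's mean over the 8 arrays (red above, blue below; the colour scale ends at 1.5). The columns of WT 1 and PKR2 1 resemble each other across the line that separates the groups, with high Flt4 and Nrp1 probes 2 and 3 and low Kdr.

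For each member whose brightest probe was well above background on all 8 arrays and had a usable spot, the genes with the most similar pattern were looked up among 11803 candidates. Vegfa probe 1 was followed most closely by Pdlim5 (r = 0.98) and Arpc1a (r = 0.96), and Flt1 probe 1 by Atp1b1 and Aff1 (r = 0.99 each). Kdr was followed by Haus3 (r = 0.98) and Zfp180 (r = 0.97), and Nrp2 by Mcm4 (r = 0.97) and Cd93 (r = 0.95). For Vegfb probe 2 the closest genes were Art1 (r = 0.99) and Slc66a1 (r = 0.97), for Vegfc Sppl3 (r = 0.97) and Ptpre (r = 0.95), and for Figf Etv6 and Tgfbrap1 (r = 0.91 each). Pgf was closest to Tfap4 and Sema6c (r = 0.98 each), and Nrp1 probe 1 to Erp29 (r = 0.94). The highest of 11803 correlations over 8 arrays is high by selection, so these values describe the arrays only.

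The genes around the VEGF family were described from 4 lists with 1 probe a gene, the brightest. Of their 68 genes 64 were tested, and 0 passed an adjusted p of 0.05 by limma (0% of 15657 features) or an unadjusted p of 0.05 (2.43% of features). The PKR2 mean was higher for 47 and lower for 17, where it was higher for 51.6% of all features. These shares depend on the scaling, as given list by list below.

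The signal transduction list holds 29 kinases, adaptors, phosphatases and effectors that act below the VEGF receptors. All 29 were tested, and 23 were higher and 6 lower, with a median difference of 0.070 against 0.0068 over all features. The adaptors Shb (0.41, SE 0.23) and Gab1 (0.34, SE 0.21), which couple activated Kdr to downstream kinases, had the smallest p among the higher genes. The endothelial phosphatase Ptprb (-0.27, SE 0.44) and the PI3-kinase regulatory subunit Pik3r1 (-0.078, SE 0.14) were among the lower ones by the same rule. The limma adjusted p was 1.0 for these 4 genes. The list's mean level per array, about the genes' own means, was -0.013, -0.063, -0.025 and -0.072 in WT and 0.090, 0.027, 0.021 and 0.034 in PKR2 hearts. The groups did not overlap on this score, 1 of 13 such list scores, but they did overlap after normexp background correction, after quantile normalization and in the authors' deposited table. The count of higher genes was 22, 25 and 21 of 29 under these 3 alternatives, against 48.2%, 51.9% and 47.5% of all features.

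The hypoxia and coactivator list holds 11 regulators of Vegfa transcription, of which 8 were higher and 3 lower (median 0.053). The prolyl hydroxylases Egln1 (0.21, SE 0.20) and Egln3 (0.24, SE 0.24), which mark hypoxia-inducible factors for destruction, stood at one end. The factor subunit Arnt (-0.15, SE 0.19) and the coactivator Ppargc1a (-0.16, SE 0.42) stood at the other. Of the 11, 5 were higher in the authors' deposited values, against 47.5% of all features there. Among the 13 tested of 15 genes that VEGF induces in endothelium, 10 were higher and 3 lower (median 0.14, but 0.016 without WT 2 and 0.30 without PKR2 2), with the calcineurin inhibitor Rcan1 at 0.33 (SE 0.21), the nuclear receptor Nr4a1 at 0.35 (SE 0.26), the netrin receptor Unc5b at -0.14 (SE 0.28) and the Tie2 ligand Angpt2 at -0.040 (SE 0.24). In the authors' deposited table the direction of this list turned, with 4 of 13 higher and a median of -0.029. There 47.5% of all features were higher, with a median of -0.0087, and 6 of the 13 lay above that median. After normexp 7 of 13 were higher (median 0.042), against 48.2% of all features. Of the 13 semaphorins, plexins and partners of neuropilins, 11 were tested, 6 higher and 5 lower (median 0.035, and -0.035 after quantile normalization and -0.041 without WT 4). Sema3g, an endothelial semaphorin, stood at -0.33 (SE 0.22) and its relative Sema3f at 0.13 (SE 0.19). The semaphorin receptors Plxna2 and Plxnd1 stood at -0.14 (SE 0.38) and 0.21 (SE 0.15). For the 12 named genes of these 3 lists the limma adjusted p was 1.0.

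**Figure D5:**
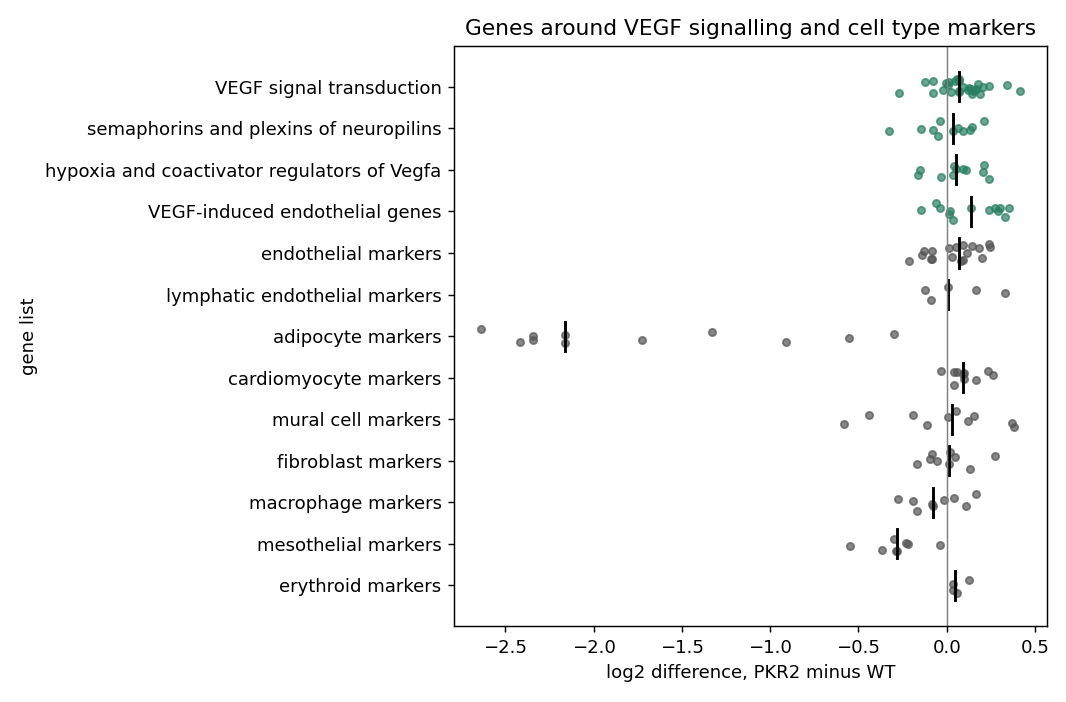
Difference in log2 level between PKR2 and WT hearts for each tested gene (points, 1 probe a gene) of 4 lists around VEGF signalling (green) and 9 cell type lists (grey), with a bar at each list's median. The medians lie between -0.08 and 0.14 except for the mesothelial list at -0.28 and the adipocyte list at -2.16.

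Cell type markers were read beside the VEGF family, because in RNA of a tissue fewer cells of a type and less RNA per cell cannot be told apart. Of 18 endothelial markers 12 were higher and 6 lower (median 0.067), among them Pecam1 at 0.24, Cdh5 at -0.085 and Tie1 at -0.13. The endothelial score ran from -0.098 to 0.11 in WT and from -0.095 to 0.078 in PKR2 hearts, so the groups overlapped. Of 6 lymphatic markers 5 were tested, 3 higher and 2 lower (median 0.0099), with Prox1 at 0.17 and Lyve1 at -0.12. Of 10 cardiomyocyte markers 9 were higher (median 0.093), of 10 mural cell markers 6 (median 0.030), of 9 fibroblast markers 5 (median 0.013), of 9 macrophage markers 3 (median -0.077) and of 4 tested erythroid markers 4 (median 0.046). None of these markers passed an adjusted p of 0.05 by limma, 1 mural gene passed an unadjusted p of 0.05, and 2.43% of all features did so.

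Markers of fat had lower means in PKR2 hearts. All 11 tested of 15 adipocyte markers were lower in PKR2 hearts (median -2.16, 6 with an unadjusted limma p under 0.05 and 0 with an adjusted one), including Adipoq at -2.34 and Plin1 at -2.16. Lep, Adrb3 and Adig had no probe that met the rule for testing. The adipocyte score was 1.35, 1.17, -0.22 and 1.13 in WT and -2.19, -2.04, 0.56 and 0.24 in PKR2 hearts, so PKR2 1 and PKR2 2 were lowest and the groups overlapped. All 8 mesothelial markers had lower means as well (median -0.28, 0 with an unadjusted limma p under 0.05). Their score was 0.20, 0.093, 0.082 and 0.19 in WT and -0.53, -0.37, 0.22 and 0.11 in PKR2 hearts. PKR2 1 and PKR2 2 were again lowest, PKR2 3 was the highest, and the groups overlapped. With the adipocyte score as a covariate the difference was 0.44 (SE 0.22) for Vegfa probe 1, -0.55 (SE 0.39) for Flt1 probe 2 and -0.12 (SE 0.33) for Kdr, and 0 of the 16 VEGF family probes passed an adjusted p of 0.05 by limma. The part of fat or mesothelium in the VEGF family values was not tested beyond this fit.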

How the data were processed

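The deposited scanner files hold spot intensity on a linear scale, 1 file per array, read with Feature Extraction 9.5.1.1 per the file headers, which subtracted background and flagged outlying spots. The authors' deposited value table, an alternative here, holds intensity normalized between arrays. The sources used here do not say how; it was read as linear and uncentred, and its array medians were 139 to 144.

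Here log2 of the processed intensity was taken for the deposited spots and each array's 75th percentile over unflagged non-control spots subtracted. Control and flagged spots were left out, saturated ones kept, and spots of a probe averaged (43379 spots of 41174 probes). Probe names came from the files and, for lists, from RefSeq tables of GRCm38.p6 (24375 probes by accession, 8727 by symbol or synonym, 1788 keeping the file's name, 6284 unnamed). Another 97 detected probes had no usable spot on some array and were not tested. limma 3.58.1 in R 4.3.3 (data.table version 1.17.8) compared the 4 and 4 arrays without covariates, with Benjamini-Hochberg adjustment at 0.05 over 22717 probes, or 15657 features with 1 probe a gene. The code was tested on simulated levels with the spread of these probes and noise drawn independently for each array. Of 100 probes changed by 1 on the log2 scale, 35% reached a limma adjusted p under 0.05. Of 100 changed by 2, 85% did so, and 7 unchanged probes passed as well. Single probes also had a two-sided exact permutation test.

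The members, lists and tests were chosen with earlier results of these data known. Named were all members, the 2 genes with the smallest p in each direction of each list of genes around VEGF, up to 3 genes per cell type, and the 2 most similar genes per member; 1 gene named by this rule is not reported here. Alternatives were normexp background correction (offset 50), quantile normalization, the authors' values, other probe filters, 1 probe a gene, slide, scan range and adipocyte score in the fit, arrays at position 4 only, a trended robust variance and leaving out arrays. The number of arrays limits the precision. P-values measure the spread between these 8 hearts, each read on 1 array.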

Additional observations from a re-analysis of the deposited data

Results flagged for a closer look

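In 3 of 39 groups of 4 values, 1 value for each heart, a single heart lay apart from the others of its group by Dixon's test at the 95% level; chance gives about 1 in 20 groups. Kdr probe 1 read 3.0 in WT 1 against 3.62 to 3.72 in the other WT hearts, and leaving out WT 1 gave a difference between PKR2 and WT of -0.36 (limma adjusted p = 0.772). Nrp1 probe 3 read -0.303 in WT 1 against -1.24 to -1.09 in the other WT hearts, and leaving out WT 1 gave a difference of 0.43 (limma adjusted p = 0.772). Nrp1 probe 1 read 0.279 in PKR2 2 against -0.22 to -0.14 in the other PKR2 hearts, and leaving out PKR2 2 gave a difference of -0.14 (limma adjusted p = 0.945).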

How the results depend on the processing

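The count of 0 VEGF family probes past the threshold held under all 22 alternatives. Among these, slide as a fixed block draws its difference only from the slides that held both groups. Arrays at position 4 only set the PKR2 hearts against WT 1 alone. In both of these fits a count of 0 says little. Of 345 fits of a single probe under 1 alternative, 284 kept the direction and 61 did not, with a smallest limma adjusted p of 0.553. After normexp correction, which moved the median difference of all tested probes from 0.02 to -0.11, 13 of the 16 probes lay above that median (6 without it); Kdr became 0.13, Flt1 probe 1 0.33, Vegfc 0.18, Vegfb probe 2 0.33, Pgf -0.15 and Nrp1 probe 3 -0.010. Quantile normalization gave Flt1 probe 1 0.034 and Vegfb probe 2 0.029. Slide as a random block gave Flt4 0.062 and Nrp2 -0.060, and as a fixed block Figf 0.0052, Flt4 0.33, Flt1 probe 3 -0.074 and Nrp2 -0.20. Without the slide of WT 4 and PKR2 4, Pgf was -0.19, Vegfc 0.045, Nrp1 probe 1 0.051 and Vegfb probe 2 0.16. Scan range as a block gave Pgf -0.049 and Vegfc 0.0065. Arrays at position 4 only, with WT 1 as the lone WT heart assumed to vary like the PKR2 hearts, gave Kdr 0.30, Flt1 probe 1 0.33, Flt1 probe 2 0.15, Vegfc 0.25, Nrp1 probe 1 0.15, Nrp1 probe 3 -0.45 and Vegfa probe 3 -0.37. The adipocyte score as a covariate gave Figf 0.057, Flt4 0.15, Pgf -0.34 and Nrp2 -0.027, and leaving out WT 1 and PKR2 1 gave Flt1 probe 1 0.0091 and Nrp2 -0.064. Leaving out each array in turn gave ranges that include 0 for Vegfa probe 2 (-0.028 to 0.15), Vegfb probe 2 (-0.17 to 0.18), Vegfc (-0.14 to 0.053), Pgf (-0.29 to 0.25), Flt1 probe 1 (-0.25 to 0.14), Flt1 probe 3 (-0.049 to 0.36), Flt4 (-0.55 to 0.39), Nrp1 probe 1 (-0.14 to 0.043), Nrp1 probe 2 (-0.20 to 0.063) and Nrp2 (-0.11 to 0.14). The ranges of the other probes did not include 0: Vegfa probe 1 (0.17 to 0.34), Vegfa probe 3 (0.13 to 0.51), Figf (-0.23 to -0.024), Flt1 probe 2 (-0.50 to -0.088), Kdr (-0.36 to -0.025) and Nrp1 probe 3 (0.063 to 0.43). The count of higher probes ran from 6 to 11, with 11 without PKR2 3. The signal transduction median was 0.27 after normexp and 0.11 after quantile normalization, and 0.053 to 0.12 without 1 array (0.12 without WT 1, 0.11 without PKR2 2). The hypoxia list median was 0.17 after normexp and 0.027 to 0.16 without 1 array (0.16 without WT 4). Without 1 array the median of VEGF-induced genes was 0.016 to 0.30 and of semaphorins and plexins -0.041 to 0.10. Over all probes 1 passed under the stricter filter (Anks1, adjusted p = 0.0381), slide as a random block (Anks1, 0.0378), a trended robust variance (Anks1, 0.0240), arrays at position 4 only (Fzd2, 0.00482) and without PKR2 3 (Anks1, 0.00109), with 0 to 1 over the arrays left out. The cause of these changes was not tested. No paired analysis was possible because the labels number no replicates and the numbers given here in list order pair no hearts; the slides shared by WT 3 and PKR2 3 and by WT 4 and PKR2 4 were used as a block instead. The number of arrays and, for Flt4, signal near background limit all of these values.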
